A study of Mus musculus with 16 samples.

Results

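Pbld1 and Pbld2 are neighbouring mouse genes for proteins with a phenazine biosynthesis-like domain, and their reads were followed across 16 libraries of mouse sperm RNA. They make up 2 of the 24062 gene rows in the deposited count table, and were selected on the diet difference of Pbld2: in an earlier reading of these counts it was one of the genes that differed most between the diets, and Pbld1 was taken as its neighbour. That contrast is therefore given for Pbld2 as a description, with no test. Of the 2 genes, 1 (Pbld2) passed the filter on low counts, as did 13149 of all rows.

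Of the males, 8 ate a modified high-fat, high-calorie diet (HFD) and 8 its control diet (CD), with a library each. Both groups began the diet at 3 weeks of age and ate it for 9 weeks before motile sperm were isolated, and the labels name no strain and no genetic change. Within a study of parental obesity and the embryo before implantation, the libraries ask which sperm transcripts differ with the diet of the male. Each library was made from a small amount of amplified total RNA, and no molecular identifier is named, so copies of a molecule cannot be told from separate molecules.

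The PBLD proteins belong to the same fold family as PhzF, a bacterial isomerase of phenazine synthesis, and their own reaction is not settled. Human PBLD, also called MAWBP, was named for binding STRAP (MAWD), a WD-repeat protein that restrains signalling from the transforming growth factor beta (TGF-beta) receptors. Human PBLD is best known from kidney and liver. Where humans have a single PBLD gene, the mouse has Pbld1 and Pbld2 side by side.

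The pair lies on the plus strand of chromosome 10 (GRCm38, the assembly that mm10 denotes; GENCODE M21). Pbld2 (ENSMUSG00000020072.15, protein coding) runs from 63024315 to 63058813, and Pbld1 (ENSMUSG00000112129.1, protein coding) from 63060162 to 63077962, with 1348 bases between them. Each overlaps an annotated antisense gene on the minus strand, Gm16143 within Pbld2 and Gm48072 within Pbld1. With no strand setting stated for the counting, a gene's reads and those of its antisense partner cannot be told apart. The next gene upstream, Hnrnph3, starts on the opposite strand with 97 bases between its annotated start and that of Pbld2 as a gene, which is the start of transcript Pbld2-202.

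The 2 coding sequences are alike, which bears on how far reads can be assigned to one or the other. The GENCODE transcripts Pbld2-201 and Pbld1-201 hold 864 and 867 coding bases, and 795 of 864 aligned bases (92.0%) are identical. The longest run without a difference is 143 bases. The stretch of 60 aligned coding bases with the most differences is shown here, with the 18 differing bases in capitals. It spans coding bases 688 to 747 of Pbld2 and 691 to 750 of Pbld1, counted from 1 at the start codon.
Pbld2: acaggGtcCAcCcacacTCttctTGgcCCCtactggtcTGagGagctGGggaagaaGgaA
Pbld1: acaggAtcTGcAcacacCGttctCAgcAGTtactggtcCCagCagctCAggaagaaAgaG
Over the Pbld2 transcripts, 290 of 2427 windows of 50 bases (11.95%) occur unchanged in a transcript of another gene, and that gene is Pbld1 each time. A read that lies wholly within such shared sequence would align to both genes, while a longer read that crosses a difference could be placed. The summary rows of the table show that reads without a unique alignment were kept out of the gene counts. How many reads of the pair were lost in this way is not known. The read length is not given in the sources used here.

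The start regions of the genes differ, and they are shown because Pbld2 was read in every library while Pbld1 was nearly silent. The sequences are RefSeq windows on GRCm38.p6, plus strand, from 250 bases before to 50 bases after an annotated RefSeq start. The Pbld2 window is chr10:63024262-63024561, whose RefSeq start (63024512) is that of Pbld2-201 and lies 197 bases inside the GENCODE gene, and the later of a pair of Pbld1 windows is chr10:63061339-63061638. Capitals mark matches, on either strand, to the box named CCAAT after its letters, to the GC box (GGGCGG) and to the octamer (ATTTGCAT).
Pbld2: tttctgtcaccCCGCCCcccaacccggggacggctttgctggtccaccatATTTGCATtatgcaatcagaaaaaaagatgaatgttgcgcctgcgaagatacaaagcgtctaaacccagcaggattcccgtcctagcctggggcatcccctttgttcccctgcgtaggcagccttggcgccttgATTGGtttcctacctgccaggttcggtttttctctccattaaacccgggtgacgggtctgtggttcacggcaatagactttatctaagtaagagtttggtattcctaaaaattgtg
Pbld1: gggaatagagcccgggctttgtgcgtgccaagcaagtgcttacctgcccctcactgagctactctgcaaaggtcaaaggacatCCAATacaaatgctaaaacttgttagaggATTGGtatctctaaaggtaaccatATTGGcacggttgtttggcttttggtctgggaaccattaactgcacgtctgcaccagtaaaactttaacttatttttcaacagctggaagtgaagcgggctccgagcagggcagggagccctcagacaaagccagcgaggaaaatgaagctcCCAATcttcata
The Pbld2 window has a GC box, an octamer and a CCAAT box, the last 66 bases before the RefSeq start and after that of Pbld2-202, and 13 CpG dinucleotides against a median of 7 over all windows. The Pbld1 window shown has CCAAT at 4 places and 7 CpG, and the earlier one (start 63060463) has no match and 8 CpG. Of 32851 windows of this length in the table, 37.4% hold CCAAT, 35.7% GGGCGG and 1.74% the octamer. Neither the TATA box (TATAAA, in 13.6% of windows), nor the cAMP response element (TGACGTCA, in 1.79%), nor the androgen response element (in 0.00913%) was found in the windows of either gene. The motifs do not overlap one another here. A match is a description of letters and not a site of binding.

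Gene counts per library ranged from 1882555 to 7783981, the lowest in HFD 4 and the highest in CD 2. The label gives sperm, and the preparations also held RNA of the epididymis, the duct in which sperm mature. Levels are given as CPM, read counts scaled to a common library size. The summed CPM of 38 epididymal genes was 13000 to 88120 in HFD and 41640 to 107000 in CD. That of 40 late spermatid genes was 3740 to 68190 in HFD and 2917 to 15260 in CD. HFD 4 and HFD 8 stood apart from the other 14 libraries: they had the lowest epididymal sums (17660 and 13000 CPM), the highest late spermatid sums (33330 and 68190 CPM) and the lowest shares of reads in genes. Several list sums, counts and gene values that they move are also given without them, and other values include them unless stated.

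Pbld1 was close to absent from both diets. It had 1 read in HFD 1, 1 in HFD 2 and 4 in HFD 7, against 3 in CD 4, and 0 reads in the other 12 libraries. A count of 0 allows up to 3 reads, which comes to between 0.397 CPM in CD 2 and 1.79 CPM in HFD 4. Floors and intervals here cover counting error only, and this floor is used for every count of 0. In total that is 6 reads in HFD and 3 in CD, so no fold change was computed and a diet difference in Pbld1 was not detectable at this depth. Whether these 9 reads were transcribed from Pbld1 or misplaced from the 92.0% identical Pbld2 was not tested.

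Pbld2 was read in all 16 libraries, at a level below that of most tested genes. It had 296 reads in HFD and 822 in CD. By mean CPM it stood above 39.5% of the 13149 tested genes. Of the reads that fell on the pair, 1118 on Pbld2 and 9 on Pbld1, Pbld2 held 99.2% (95% exact binomial interval 98.49% to 99.63%). Per base of annotated exon, its read density was 197 times that of Pbld1 (95% interval 103 to 431). This uses all GENCODE exons of each gene merged, 2480 bases for Pbld2 and 3928 for Pbld1. Pbld2-201 and Pbld1-201 alone are closer in length, at 2212 and 2407 bases, and would give a smaller ratio. The annotation used for the counting is not named.

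In HFD, Pbld2 had 16.5 CPM in HFD 1, 14.5 in HFD 2, 6.84 in HFD 3, 0.595 in HFD 4, 3.87 in HFD 5, 14.5 in HFD 6, 11.8 in HFD 7 and 4.88 in HFD 8. In CD, it had 32.9 CPM in CD 1, 14.7 in CD 2, 38.8 in CD 3, 36.1 in CD 4, 23.5 in CD 5, 24.3 in CD 6, 22.7 in CD 7 and 22.0 in CD 8. The HFD values lay below the CD values in 63 of the 64 possible pairs of an HFD and a CD library, and the exception was HFD 1 against CD 2. CD 2 alone joined the range of the HFD libraries, and the other 7 CD libraries were all above the highest HFD value.

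**Figure D1:**
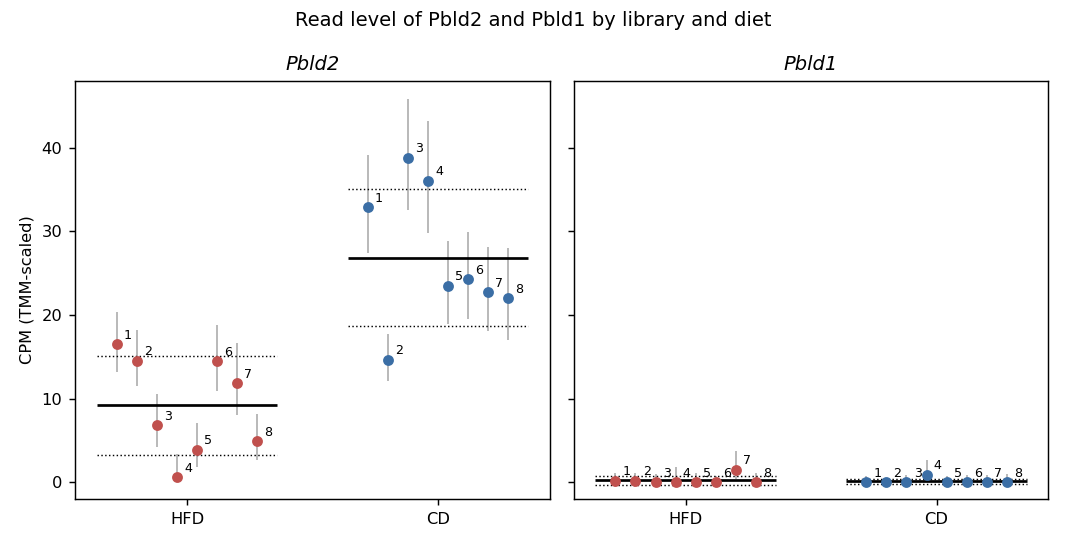
TMM-scaled CPM of Pbld2 (left) and Pbld1 (right) in each HFD and CD library, numbered by replicate; grey bars are 95% Poisson intervals of the read count (up to the floor of 3 reads where the count is 0), solid lines group means and dotted lines 1 SD either side (n = 8 per diet). Pbld2 lies between 0.595 and 16.5 CPM in HFD and between 14.7 and 38.8 CPM in CD, while Pbld1 is at or near 0 throughout.

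Pbld2 averaged 9.19 CPM ± 5.89 in HFD and 26.9 CPM ± 8.2 in CD (SD, n = 8 each), which edgeR fitted as a log2 fold change of -1.51 ± 0.41 (SE). Of all tested genes, 53 (0.403%) had a log2 fold change below -1, and Pbld2 was one of them, while 1501 (11.4%) had one above 1. Without HFD 4 and HFD 8, 90 of 13448 genes (0.669%) were below -1 and 80 (0.595%) above 1. With all 16 libraries 4 of the 13149 genes were as low as Pbld2 or lower, itself included. After adjustment over all genes 0 (0%) passed the threshold of 0.05 in either direction, and 1482 genes had an unadjusted p under 0.05. DESeq2 passed 1 gene, which was Apoh, the gene of beta-2-glycoprotein I, named here after its value was seen. With every HFD library below every CD library there was 1 gene (0.00761%), Rnf26. These values describe how the gene came to be chosen and are no evidence for it.

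The size of the Pbld2 difference did not rest on a single library. Without HFD 4 and HFD 8 the HFD mean was 11.3 CPM ± 4.96 (SD, n = 6) and the log2 fold change -1.21 ± 0.31 (SE). Leaving out CD 2, the lone CD library within the HFD range, gave a CD mean of 28.6 CPM ± 7.09 (SD, n = 7) and a log2 fold change of -1.61. With the balance of epididymal to late spermatid transcripts as a covariate it was -1.44, and with the summed initial segment and caput transcripts as a covariate, a covariate added once the data had been seen, it was -1.63. These settings change libraries or scale and use the same contrast that brought the gene up.

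**Figure D2:**
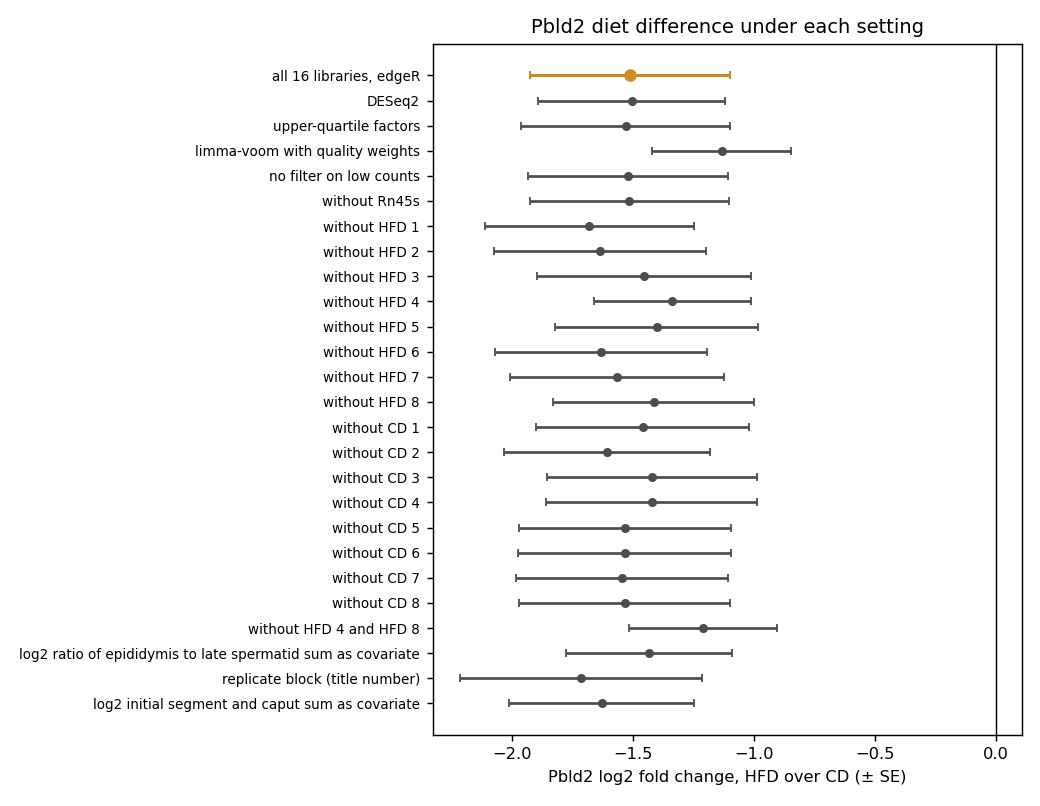
Log2 fold change of Pbld2, HFD over CD, with its SE, from edgeR on all 16 libraries (top, orange) and under 25 other settings. All values lie below 0, between -1.72 and -1.13.

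Pbld2 varied between libraries within each diet. The biological coefficient of variation that edgeR fitted was 53.1% for Pbld2 and 55.9% for the trend at its abundance. The fit draws the value of each gene toward that trend, so their nearness does not show that the spread of Pbld2 is typical. Over CPM, the coefficient of variation was 64.1% in HFD and 30.5% in CD. The lowest value, in HFD 4, was a single read in the shallowest library, with a 95% Poisson interval of 0.0151 to 3.32 CPM. The value of CD 2, the deepest library, rested on 111 reads with an interval of 12.1 to 17.7 CPM, which ends below the intervals of CD 1, CD 3, CD 4, CD 5, CD 6 and CD 7. Between diets, lower reads of a gene can come from fewer cells that make it or from less RNA per cell, and in these bulk libraries the 2 cannot be told apart.

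The nearest genes upstream of the pair, Hnrnph3 and Rufy2, had mean levels that differed between the diets by less than their SD. Hnrnph3, a splicing factor gene that starts 98 bases away on the other strand, had 36.3 to 95.5 CPM in HFD and 45.8 to 88.4 CPM in CD. The mean was 66.5 ± 19.4 in HFD, against 65.2 ± 15.3 in CD (SD, n = 8), and the log2 fold change of 0.03 ± 0.21 (SE, edgeR adjusted p = 0.972) changed sign with the setting. The HFD and CD values overlapped over nearly their whole range, with HFD lower in 32 of the 64 pairs of libraries. Rufy2, which overlaps the end of Hnrnph3 and encodes an adaptor of membrane traffic, averaged 78.7 CPM ± 19.6 in HFD and 79.3 ± 13.4 in CD. Its log2 fold change was -0.01 ± 0.19 (SE, edgeR adjusted p = 0.987).

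Levels between genes can be set side by side as CPM per kb of annotated exon. On that scale Pbld2 averaged 3.71 in HFD and 10.8 in CD, and Hnrnph3 21.1 in HFD and 20.7 in CD. Pbld1 came to 0.0592 in HFD and 0.0292 in CD, from its 9 reads. In CD, Pbld2 was thus near the density of Rufy2 (9.70 in HFD, 9.78 in CD) and Slc25a16 (9.08 in HFD, 10.97 in CD). In HFD the mean of Pbld2 was below that of both.

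Farther out, Tet1, which oxidises 5-methylcytosine, averaged 19.8 CPM ± 9.06 in HFD and 26.8 ± 8.30 in CD. Slc25a16, a mitochondrial carrier gene, averaged 43.6 CPM ± 23.4 in HFD and 52.7 ± 17.1 in CD. The lowest HFD values of both genes were in HFD 4 and HFD 8, at 3.57 and 11.2 CPM for Tet1 and 8.33 and 14.6 CPM for Slc25a16. Sirt1, a deacetylase gene, averaged 20.1 CPM ± 6.85 in HFD and 19.6 ± 5.41 in CD, and Dnajc12, a co-chaperone gene, 5.45 ± 4.29 in HFD and 4.51 ± 2.70 in CD. Herc4, a ubiquitin ligase gene that is strongly transcribed in testis, was the neighbour with the largest fold. It averaged 73.6 CPM ± 64.7 in HFD and 32.0 ± 7.68 in CD, with 206 CPM in HFD 4 and 139 in HFD 8 against at most 56.1 in the other HFD libraries. Without HFD 4 and HFD 8 its HFD mean was 40.6 ± 13.7 (SD, n = 6) and its log2 fold change 0.35 ± 0.23 (SE), against 1.19 ± 0.40 (SE) with them. Of the 10 neighbours, 7 were tested and 0 passed (background 0%), so the count says nothing particular about them. Their edgeR adjusted p ran from 0.434 for Herc4 to 0.987 for Rufy2. Dna2, Mypn and Atoh7 did not pass the filter on low counts, and the neuronal regulator Atoh7 had 0 reads in all libraries. Mypn had 33 reads in HFD and 13 in CD, and Dna2 had 53 in HFD and 56 in CD.

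**Figure D3:**
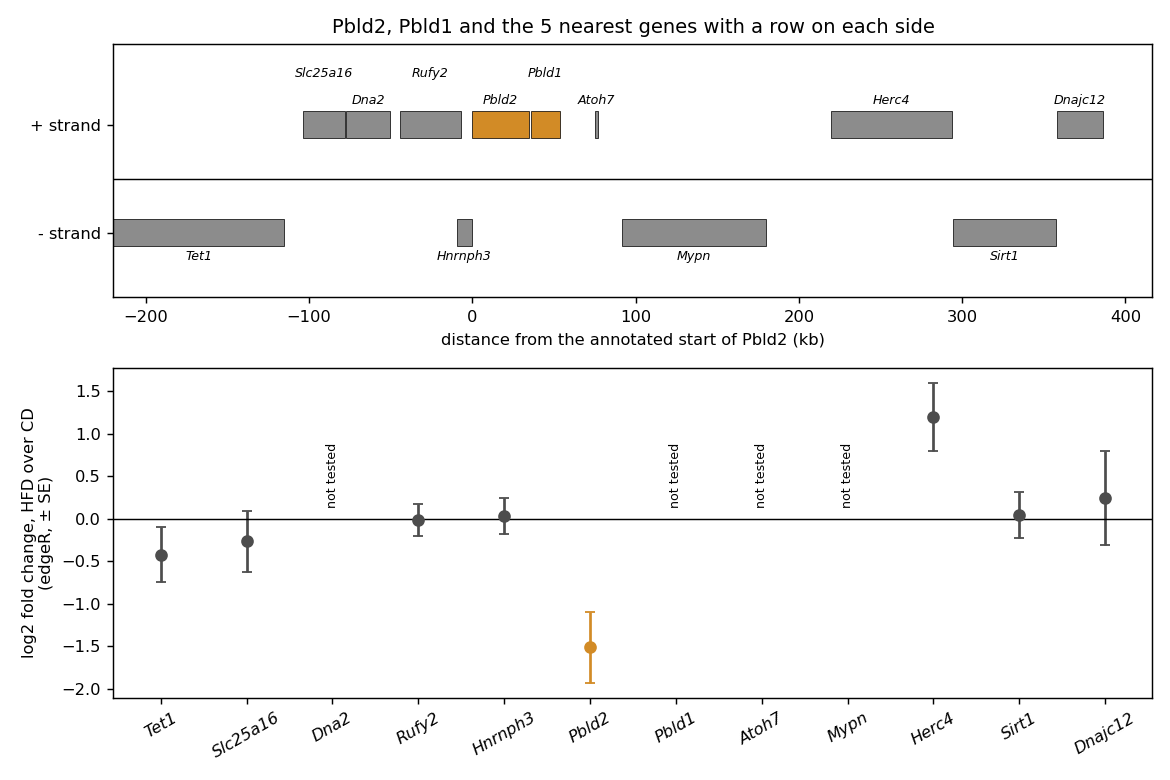
Top, Pbld2 and Pbld1 (orange) and the 5 nearest genes with a row on each side (grey), by strand and distance in kb from the annotated Pbld2 start. Bottom, edgeR log2 fold change, HFD over CD, with its SE for each gene that passed the filter; Pbld2 stands at -1.51 and the other 7 genes between -0.42 and 1.19.

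Among 14 libraries, no relation of Pbld2 with the amount of epididymal or spermatid RNA was detected. A moderate relation can be missed with so few libraries. Over the 14 libraries without HFD 4 and HFD 8, and with the mean of each diet taken out, Pbld2 and the epididymal sum had a Pearson r of -0.02 (permutation p = 0.949; adjusted over 3 relations, 0.949) and a Spearman rho of 0.15 (permutation p = 0.606). With the summed initial segment and caput transcripts, the head of the duct, r was -0.18 (permutation p = 0.489, adjusted 0.734) and rho -0.09 (permutation p = 0.754). With late spermatid transcripts, r was -0.24 (permutation p = 0.376, adjusted 0.734) and rho -0.28 (permutation p = 0.331). All tests were two-sided with 100000 permutations within diet. No r is given over all 16 libraries because HFD 4 and HFD 8 form a cluster of their own. These libraries, lowest in epididymal and highest in late spermatid sums, were also low in Pbld2, at 0.595 and 4.88 CPM. HFD 5, with an epididymal sum of 72930 CPM, had 3.87 CPM of Pbld2. What part composition had in these values was not tested.

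Without the 2 libraries farthest from the median of the x axis, r was -0.11 for the epididymal sum (permutation p = 0.727), -0.0018 for the caput sum (permutation p = 0.996) and -0.50 for the late spermatid sum (permutation p = 0.0735). A single library moved these values. Without CD 2, r was 0.35 for the epididymal sum (permutation p = 0.108), 0.07 for the caput sum (permutation p = 0.807) and -0.53 for the late spermatid sum (permutation p = 0.0388, adjusted 0.116). Within HFD (n = 6), r was 0.33, -0.02 and -0.74 for the epididymal, caput and late spermatid sums, with exact permutation p of 0.537, 0.961 and 0.104. Within CD (n = 8), r was -0.15, -0.34 and 0.09, with exact permutation p of 0.722, 0.409 and 0.841. CPM within a library share a total, so a large sum lowers the others by arithmetic. In these 14 libraries the epididymal sum reached 107000 CPM (CD 2) and the late spermatid sum 15260 CPM (CD 8). How far this bears on r was not tested.

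**Figure D4:**
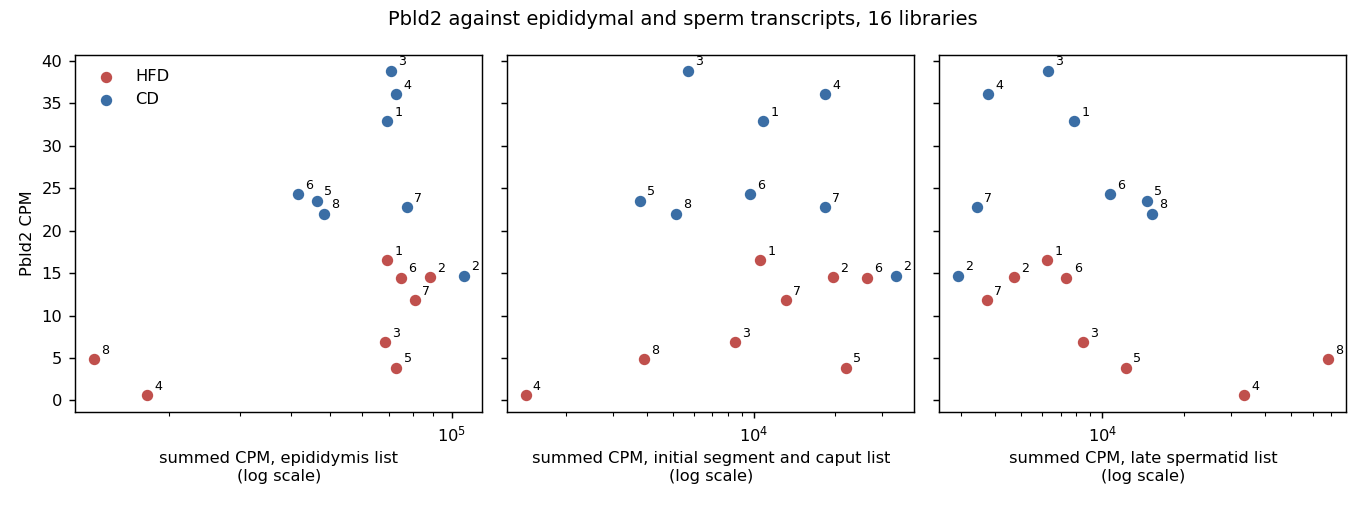
Pbld2 CPM against the summed CPM (log axis) of the epididymis, initial segment and caput, and late spermatid lists in each HFD (red) and CD (blue) library, numbered by replicate. HFD 4 and HFD 8 lie apart at low epididymal and high late spermatid sums, and among the other 14 libraries, with diet means taken out, r of Pbld2 with the sums is -0.02, -0.18 and -0.24.

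Without HFD 4 and HFD 8, epididymal sums were 68460 to 88120 CPM in HFD, with 3.87 to 16.5 CPM of Pbld2. In CD, 4 libraries lay within that range of sums, and CD 1, CD 3, CD 4 and CD 7 had 32.9, 38.8, 36.1 and 22.7 CPM of Pbld2. Outside it, CD 5, CD 6 and CD 8 had sums of 41640 to 48290 CPM with 22.0 to 24.3 CPM of Pbld2, and CD 2 had the highest sum, 107000 CPM, with 14.7 CPM of Pbld2. Scaled to the epididymal reads alone in place of all gene reads, Pbld2 had 33.7 to 376 CPM in HFD, with a mean of 163 ± 110 (SD, n = 8). In CD it had 137 to 583 CPM on that scale, with a mean of 437 ± 148 (SD, n = 8), and HFD was the lower in 58 of 64 pairs of libraries. The highest HFD ratio was that of HFD 8, where the epididymal sum was the lowest.

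Gene by gene, epididymal transcripts went both ways with Pbld2. Over the 16 libraries, 19 of 29 tested epididymal genes had a positive and 10 a negative Spearman rho, with a median of 0.11 against 0.03 over all tested genes, of which 52.5% were positive. The highest rho values were 0.43 for Pate4, 0.41 for Wfdc16 and 0.37 for Wfdc13, of which the last 2 encode members of a protease inhibitor family. The lowest were -0.43 for Rnase10, -0.39 for Gpx5 and -0.38 for Cst8, all known from the initial segment or caput. Without HFD 4 and HFD 8 and with diet means taken out, rho was 0.44 for Pate4, 0.30 for Wfdc16, -0.02 for Wfdc13, -0.46 for Rnase10, -0.46 for Gpx5 and -0.19 for Cst8. Gpx5, a secreted glutathione peroxidase, had 7.87 to 7826 CPM in HFD and 1.42 to 1999 CPM in CD. Among the 5 most abundant, rho over 16 libraries was 0.27 for the sperm-coating Crisp1, 0.23 for Spink8, 0.37 for Wfdc13, 0.30 for Cuzd1 and 0.09 for Adam7. In the 14 libraries with diet means taken out, it was 0.35 for Crisp1, 0.23 for Spink8, 0.29 for Cuzd1 and 0.04 for Adam7. Of all 29, 13 were then positive and 16 negative, with a median of -0.02 against -0.0022 over all tested genes. These are descriptions across 14 or 16 libraries that share depth and composition.

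Genes most like Pbld2 across the 16 libraries, by Spearman rho of log2 CPM, were Rnf26 (0.89), Spop (0.88), Kalrn (0.84), Nabp2 (0.84), Fbrsl1 (0.83), E4f1 (0.82), Dock1 (0.82), Cyp4a30b (0.80), Gprin3 (0.80) and Emc9 (0.79). A rank order over all 16 libraries carries the diet difference that brought Pbld2 up, and all 10 had a lower mean in HFD than in CD. Rnf26, a ubiquitin ligase of the endoplasmic reticulum, had 4.45 to 12.9 CPM in HFD and 15.6 to 19.3 CPM in CD, with no overlap. The mean was 8.58 ± 2.92 in HFD, against 17.0 ± 1.36 in CD (SD, n = 8). Spop, which presents substrates to a cullin ubiquitin ligase, averaged 111 CPM ± 15.6 in HFD, against 142 ± 19.7 in CD, and its groups overlapped. With diet means taken out in 14 libraries, rho to Pbld2 was 0.35 for Rnf26, 0.58 for Spop, 0.60 for Kalrn, 0.32 for Nabp2, 0.71 for Fbrsl1 and 0.68 for E4f1. It was 0.61 for Dock1, 0.35 for Cyp4a30b, 0.76 for Gprin3 and 0.73 for Emc9. Kalrn and Dock1 encode guanine nucleotide exchange factors, Nabp2 binds single-stranded DNA and Emc9 is a subunit of a membrane protein insertase.

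**Figure D5:**
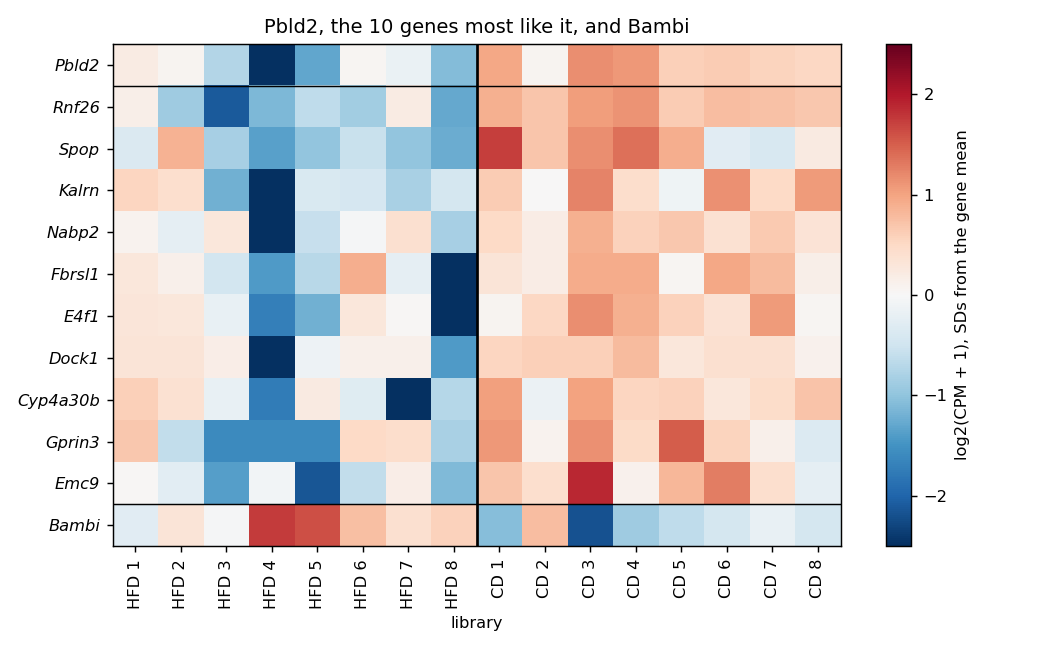
Log2(CPM + 1) of Pbld2, the 10 genes with the highest Spearman rho to it, and Bambi, the gene with the lowest, in SDs from each gene's mean over 16 libraries; HFD columns stand left of the black line and CD columns right of it. Pbld2 and the 10 genes are mostly above their means in CD, with CD 2 nearest to the mean for Pbld2, and Bambi is above its mean in 6 HFD libraries and CD 2.

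The TGF-beta pathway, through STRAP the best known partner route of human PBLD, had no gene past the threshold. Of 21 genes listed, 18 were tested, with 9 positive and 9 negative log2 fold changes, a median of 0.06 against -0.0042 over all tested genes, and 0 called (background 0%). The lowest edgeR adjusted p was 0.518, for Ltbp1. Strap averaged 154 CPM ± 87.0 in HFD, against 126 ± 34.7 in CD (SD, n = 8), and the log2 fold change was 0.28 ± 0.27 (SE, edgeR adjusted p = 0.739). HFD 4 held 359 CPM of Strap, against 75.1 to 167 in the other HFD libraries and 87.0 to 179 in CD, and without it the log2 fold change was -0.0039. Ltbp1, which binds latent TGF-beta outside the cell, averaged 60.2 CPM ± 17.4 in HFD and 79.2 ± 20.4 in CD, with a rho to Pbld2 of 0.77 over 16 libraries and 0.55 over 14 with diet means taken out. Ski, a corepressor of Smad proteins, averaged 117 CPM ± 55.0 in HFD and 161 ± 21.1 in CD (edgeR adjusted p = 0.602). Its lowest values were 29.2 CPM in HFD 4 and 35.6 in HFD 8. Smurf2, a ubiquitin ligase for pathway components, averaged 96.1 CPM ± 19.1 in HFD and 97.0 ± 16.5 in CD (edgeR adjusted p = 0.982).

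Bambi, a pseudoreceptor that dampens TGF-beta signalling, was not on that list and was named after its value was seen: its rho of -0.90 was the lowest to Pbld2 of all tested genes. In HFD, Bambi had 3.07 CPM in HFD 1, 4.91 in HFD 2, 3.76 in HFD 3, 13.1 in HFD 4, 12 in HFD 5, 6.72 in HFD 6, 5.17 in HFD 7 and 5.93 in HFD 8. In CD, it had 1.54 CPM in CD 1, 6.75 in CD 2, 0.283 in CD 3, 1.83 in CD 4, 2.30 in CD 5, 2.73 in CD 6, 3.32 in CD 7 and 2.71 in CD 8. The libraries with the least Pbld2, HFD 4 and HFD 5, had the most Bambi, and CD 3, with the most Pbld2, had the least. Such opposite extremes follow from picking the lowest rho, which over 16 libraries also carries the diet difference that brought Pbld2 up. CD 2 was the CD library nearest to HFD in both genes. Bambi averaged 6.83 ± 3.72 in HFD and 2.68 ± 1.88 in CD. Its log2 fold change was 1.29 ± 0.47 (SE, edgeR adjusted p = 0.434), and rho to Pbld2 was -0.65 over 14 libraries with diet means taken out.

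Human PBLD is abundant in liver and kidney, and marker transcripts of both were summed. The sum of 14 hepatocyte genes was 62.0 CPM ± 28.5 in HFD, against 73.1 ± 31.5 in CD (SD, n = 8), and 1 of them, the fibrinogen gene Fga, passed the filter on low counts. That of 15 genes of the kidney proximal tubule was 581 CPM ± 137 in HFD, against 659 ± 146 in CD. Of 7 tested, 3 were positive and 4 negative, with 0 called (background 0%). Without HFD 4 and HFD 8 the HFD sum (SD, n = 6) was 74.2 CPM ± 20.4 for hepatocyte genes and 652 CPM ± 39.1 for kidney genes. Both were then near the CD sums. The most abundant gene of the kidney list was Dab2, an endocytic adaptor of many epithelia, with 200 CPM ± 78.2 in HFD and 231 ± 115 in CD.

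Marker genes of other cell types had these levels. The summed CPM of leukocyte genes was 1024 ± 422 in HFD, against 737 ± 302 in CD (SD, n = 8), and 15 of 16 tested had a positive log2 fold change, as had 49.6% of all tested genes. For stroma it was 823 ± 393 in HFD, against 666 ± 252 in CD, with 12 of 14 positive, and for clear cells 663 ± 148 in HFD, against 704 ± 148 in CD, with 2 of 9 positive. For Sertoli cells it was 101 ± 18.8 in HFD, against 91.8 ± 17.8 in CD, with 2 of 4 positive. Meiotic genes, at 1579 ± 1700 in HFD against 726 ± 315 in CD, had 17 of 18 positive, and late spermatid genes 40 of 40. Epididymal genes had 11 of 29 positive and those of initial segment and caput 7 of 13. In each of these lists 0 genes were called (background 0%), and HFD 4 and HFD 8 had the highest sums of the leukocyte, stroma, meiotic and late spermatid lists. Without these libraries the HFD sum (SD, n = 6) was 858 ± 313 for leukocytes, 633 ± 190 for stroma, 676 ± 196 for meiotic genes and 7122 ± 3036 for late spermatid genes, against 8096 ± 4939 for the last in CD. Positive log2 fold changes then numbered 10 of 16 for leukocytes, 4 of 15 for stroma, 8 of 18 for meiotic, 19 of 40 for late spermatid and 27 of 32 for epididymal genes, beside 49.2% of all 13448 genes tested. For clear cells the count was 4 of 9, for Sertoli cells 3 of 4, and for initial segment and caput 13 of 15. The HFD sum of clear cells was then 729 ± 91.5 CPM and that of Sertoli cells 107 ± 17.0 (SD, n = 6). The most abundant tested gene of each list had a rho to Pbld2 over 16 libraries of -0.43 for Lyz2 of leukocytes, -0.34 for Sparc of stroma, 0.39 for Car4 of clear cells, -0.50 for Trf of Sertoli cells, -0.26 for the meiotic Mael, -0.29 for the late spermatid Smcp and 0.14 for Lcn5 of the caput. Over 14 libraries with diet means taken out, it was -0.20 for Lyz2, -0.42 for Sparc, 0.50 for Car4, -0.28 for Trf, -0.0066 for Mael, -0.24 for Smcp and -0.02 for Lcn5. Whether these cells were present, and what part they had in the Pbld2 values, was not tested.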

How the data were processed

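RNA sequencing of 16 sperm libraries was read from a single table of raw counts per gene, deposited by the authors without normalisation. STAR, HTSeq 1.0.0, DESeq2 1.0.19 and the build mm10 appear in the submitters' processing notes, without a role or order. No annotation or strand setting is named, and the read length is likewise not given in the sources used here. The table's 5 rows of the counting program entered no library size or test. Reads assigned to genes made up 8.02% to 20.1% of a library's column and reads without a unique alignment 15.8% to 30.7%.

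Diets were compared over the whole table with edgeR 4.0.16 in R 4.3.3 (TMM, default expression filter, robust quasi-likelihood F-test, two-sided, Benjamini-Hochberg adjustment, threshold 0.05). The SE is the log2 fold change divided by the root of F. CPM, sums included, use TMM-scaled library sizes. Relations used log2(CPM + 1), and likeness used log2 CPM with a prior count of 2. Exon lengths, coding sequences and positions are from GENCODE M21, and start windows from RefSeq. The fit and the permutation step were tested on simulated data. The 56 pairs of libraries within a diet had a chi-square per degree of freedom of 12.7 to 172, so no pair agreed within sampling noise. The series describes the libraries as separate mice.

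Genes and lists were chosen with earlier results of these data known. The genes named are the pair, the 5 nearest genes with a row on each side, the 10 most alike, the 3 highest and 3 lowest in rho and 5 most abundant epididymal genes, Strap with the 3 most abundant TGF-beta genes, and the most abundant gene of each other list. Apoh, Bambi and the genes alike after diet means were taken out were added after their values were seen, and 1 of the last is not reported here. Of 7 planned relations, the 4 with Pbld1 were left out because it had reads in 4 libraries, and adjustment ran over the other 3. Alternatives were DESeq2 1.42.0, limma-voom (limma 3.58.1), other scaling, no filter, no Rn45s, covariates, a block and leaving out libraries. List counts without HFD 4 and HFD 8 were added once the data had been seen.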

Additional observations from a re-analysis of the deposited data

Results flagged for a closer look

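In 16 groups of 8 libraries (8 measures in each diet), 3 had a highest value set far from the next one. The gap was judged as a share of the whole range of the group, and chance alone gives this in about 1 of 20 groups. Strap stood at 359 CPM in HFD 4. Bambi stood at 6.75 CPM in CD 2, the CD library with the least Pbld2. The late spermatid sum stood at 68190 CPM in HFD 8. Pbld2 itself held no such value in HFD or CD.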

How the results depend on the processing

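The Pbld2 log2 fold change kept its sign under all 25 alternatives, from -1.72 with title numbers as a replicate block to -1.13 with limma-voom, and from -1.68 to -1.34 without single libraries. All 25 reuse the contrast by which Pbld2 was chosen, so the kept sign is no evidence for it. The count of genes past the threshold was 0 higher and 0 lower in HFD under these alternatives, except that DESeq2 passed 1 higher (Apoh). Genes at an unadjusted p under 0.05 numbered 1482, and from 292 (without HFD 4 and HFD 8) to 2518 (no filter), with 516 without HFD 4, 689 without HFD 8, 488 with limma-voom, 516 with the epididymis to spermatid ratio as covariate and 314 with the block. Same-numbered libraries of the diets correlated at -0.40 to 0.61 over genes, and 2 of 8 correlated best with their own number, so the numbers were not taken as pairs.

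Hnrnph3 turned to -0.047 with upper-quartile factors, -0.0015 with no filter, -0.14 without HFD 4 and HFD 8, -0.11 with the ratio as covariate and -0.00053 with the block, and ran from -0.066 to 0.134 without single libraries. Strap turned to -0.095 without HFD 4 and HFD 8, and ran from -0.0039 to 0.38 without single libraries. The r of Pbld2 with the epididymal sum turned to 0.33 in HFD alone and ran from -0.070 to 0.353 without single libraries, that with the caput sum from -0.294 to 0.069, and that with the late spermatid sum turned to 0.091 in CD alone and ran from -0.53 to -0.02. None passed after adjustment under any of these settings. The cause of these turns was not tested. Relations of Pbld1 were not run, since it had 9 reads in all. Depth limits Pbld1 everywhere and Pbld2 in HFD 4, with 1 read.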

Other observations

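With diet means taken out and HFD 4 and HFD 8 left out, a ranking added once the data had been seen, the genes most like Pbld2 over 14 libraries included Btg1 (Spearman rho 0.84), 1700011B04Rik (0.79), Vhl (0.78), Vps33a (0.78), Fam109b (0.77), Piwil2 (0.77), Gprin3 (0.76), Ifrd2 (0.76) and Thoc3 (0.76). Gprin3 was the single gene also among the 10 most alike over all 16 libraries. Btg1, an antiproliferative gene, averaged 98.4 CPM ± 32.7 in HFD, against 94.4 ± 13.7 in CD (SD, n = 8). Vhl, a part of the ubiquitin ligase that turns over hypoxia-inducible factors, averaged 42.8 CPM ± 40.4 in HFD and 23.4 ± 3.55 in CD, with 108 CPM in HFD 4 and 104 in HFD 8 against 5.81 to 38.0 in the other HFD libraries, and without those 2 its HFD mean was 21.6 ± 11.3 (SD, n = 6). Piwil2, a germ line gene of the piRNA pathway, averaged 41.7 CPM ± 16.4 in HFD and 35.1 ± 14.9 in CD. Over all 16 libraries rho to Pbld2 was 0.26 for Btg1, 0.08 for Vhl and 0.07 for Piwil2.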
